A study of Homo sapiens with 2 samples.

Results

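The genes described here are those of the mitochondrial ribosome, taken as every gene of the array annotation whose symbol starts with MRPL or MRPS followed by a digit and that a probe set names alone. The rule found 77 genes on 142 probe sets, out of 19775 named genes on the array. Of these, 75 are protein-coding, 48 of the large subunit (MRPL) and 27 of the small subunit (MRPS). The other 2 entries are a pseudogene, MRPL45P2, and an antisense transcript, MRPL20-AS1, and they are kept apart below. All 75 protein-coding members lay above the floor in both arrays, the floor being the median signal of each array (28.4 in the stretched and 28.7 in the non-stretched array).

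Total RNA of Calu-3 cells, a human lung adenocarcinoma line used as a model of airway epithelium, was hybridised to Affymetrix expression arrays, with 1 array from stretched and 1 array from non-stretched cells. The stretched cells were kept on plates with a flexible, collagen-coated base in medium with 10% serum and pulled for 18 h in a sine wave whose stretch peaked at 20% and bottomed at 0.7%, with 2 s of pull followed by 2 s of rest. The non-stretched cells carry the same 18 h label, and both were the same line, plated to about 80% confluence. Each condition has n = 1, so nothing below has a replicate check, and every difference compares these 2 arrays, not the conditions at large.

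Of 7 epithelial markers, 7 lay above the floor in both arrays, and they went both ways. The keratins KRT8, KRT18 and KRT19 were higher in the stretched array, and EPCAM, CDH1, CLDN4 and ELF3 were lower, ELF3 with 810 in the stretched and 2934 in the non-stretched array. Their summed signal, carried mostly by the keratins, was 46543 in the stretched and 47316 in the non-stretched array. Of 7 markers of leukocytes, endothelium and fibroblasts on the array, PECAM1 and COL1A1 lay above the floor in both arrays. CD3E lay above it in the stretched array only (30.3 in the stretched and 25.8 in the non-stretched array). PTPRC, CDH5, COL3A1 and PDGFRB lay above it in neither, and the 7 summed to 243 in the stretched and 256 in the non-stretched array. The summed signal of 4 airway gland markers was 6158 in the stretched and 13930 in the non-stretched array, and the part of this difference in the results below was not tested. In a bulk sample a change in the share of cells of a type and a change in RNA per cell cannot be told apart. The 3′ to 5′ signal ratio of GAPDH was 0.862 in the stretched and 0.878 in the non-stretched array, and that of ACTB was 1.01 in the stretched and 1.04 in the non-stretched array.

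The mitochondrial ribosome translates the few proteins that the mitochondrial genome encodes, all of them core subunits of the respiratory chain and ATP synthase. Its RNAs are made inside the organelle, while its proteins are encoded in the nucleus, translated in the cytosol and imported. The small subunit binds the messenger RNA and decodes it, and the large subunit joins the amino acids and passes the growing chain to the inner membrane. Some of its proteins have counterparts in bacterial ribosomes and the others are found only in mitochondria.

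Most mitoribosomal genes had a higher signal in the stretched array, most of them by less than 1.5-fold. The median log2 difference (stretched minus non-stretched) of the 75 members was 0.45, a fold of 1.36, against 0.0050 over all 13453 named genes above the floor in at least 1 array. In 67 of 75 members (89.3%) the stretched signal was the higher one, while 50.5% of all measured genes lay above 0. Of the members, 24 (32.0%) were at least 1.5-fold higher, 43 were higher by less, 8 were below 0 and none was 1.5-fold lower. Among all measured genes 17.9% passed 1.5-fold upward and 16.7% passed it downward, and 49.5% lay below 0. The scaling of the arrays moves these counts. With the arrays centred on their 75th percentile, 62 members were above 0 and 19 (25.3%) at least 1.5-fold higher. The share of all measured genes at least 1.5-fold higher was then 14.44%. With the arrays centred on hybridisation spike-ins, the member counts were 71 and 36 (48.0%), and that share was 21.98%.

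Large differences were few. Only 3 members (4%) reached 2-fold upward and none reached it downward, against 7.78% and 7.49% of all measured genes. The differences of the members had an SD of 0.33 over genes, against 0.78 over all measured genes. The SD of a single probe set's difference, taken from the 2 brightest probe sets of 5818 genes, was 0.36, and 28 members differed by less than this. It comes from the disagreement of probe sets within these 2 arrays and holds no variation between arrays or cultures.

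The members are bright transcripts, with mean signals from 639 to 7011, so they were also set beside the 5137 measured genes in this range. Those had a median of 0.051 (-0.057 with 75th-percentile centring), with 54.4% of them above 0 and 45.6% below. The SD of their differences over genes was 0.68. Upward, 17.3% of them passed 1.5-fold and 6.17% passed 2-fold, and downward 12.3% passed 1.5-fold and 4.44% passed 2-fold. Across the 75 members the difference had little relation to the level (Pearson's r = -0.17, Spearman's rho = -0.18). These are correlations across genes of the same 2 arrays, and genes are not independent replicates.

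**Figure D1:**
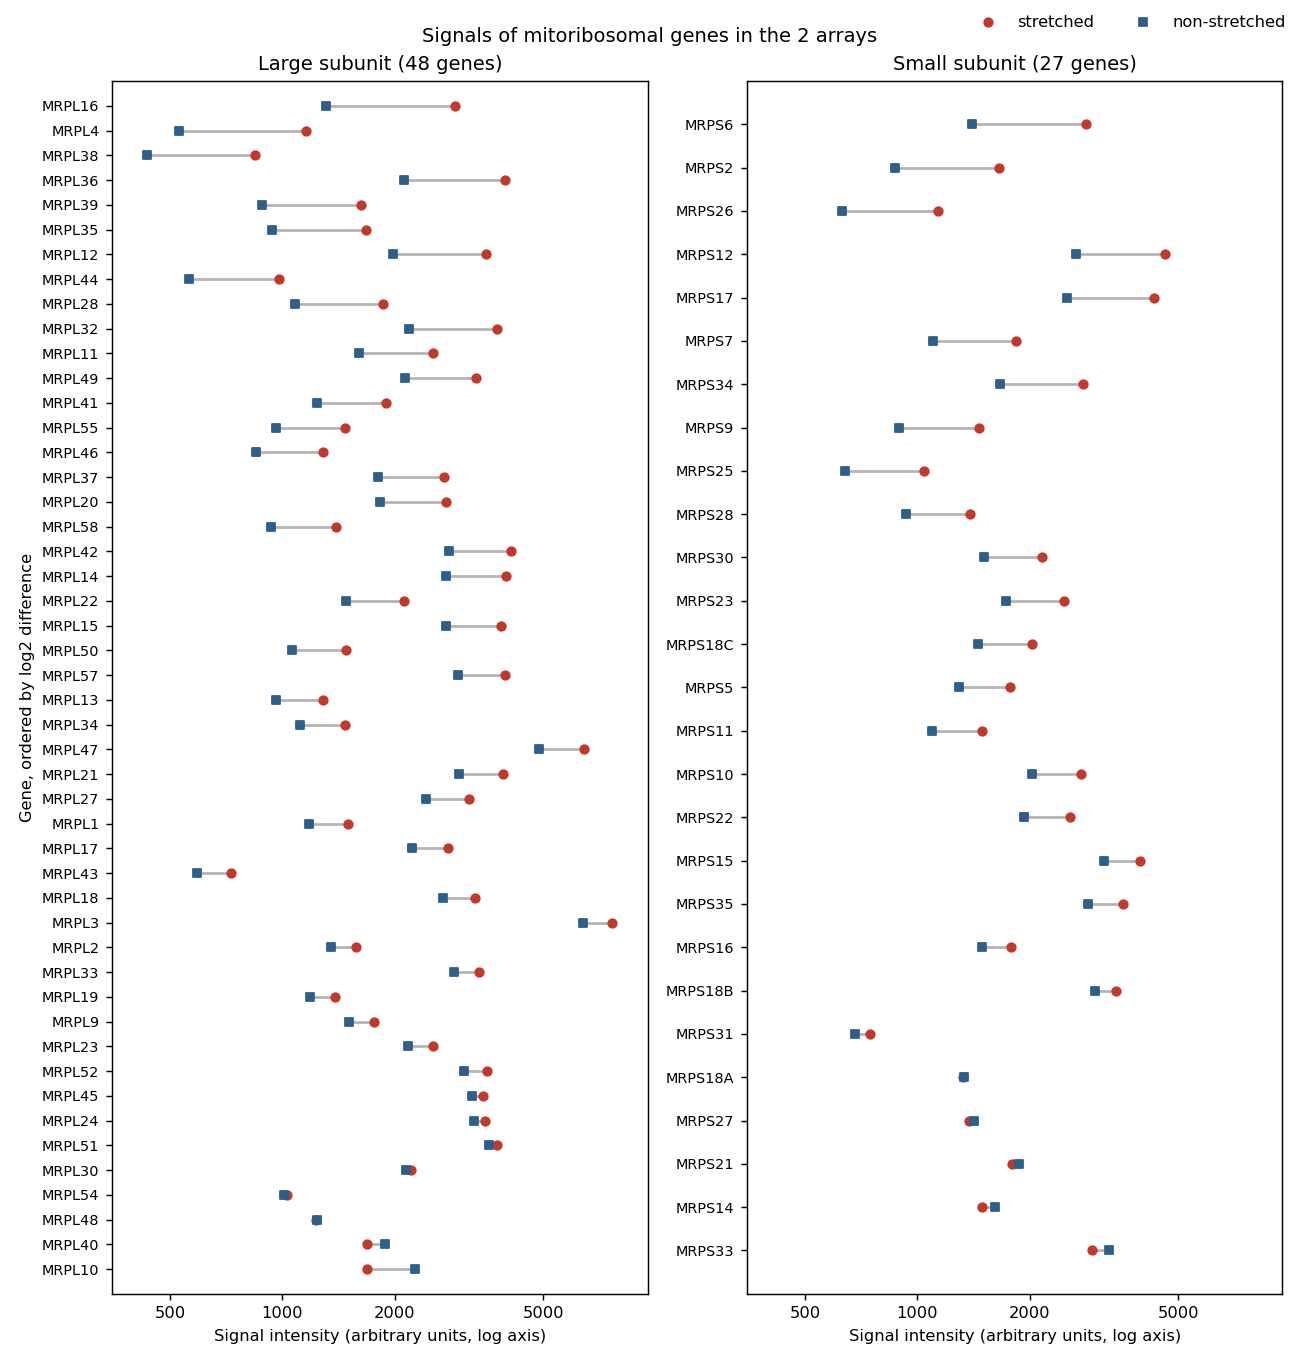
Signal intensity of each of the 75 protein-coding members in the stretched (red circles) and non-stretched array (blue squares) on a log axis in arbitrary units, by subunit and ordered by log2 difference. The red circle lies to the right in 67 genes, most by less than the 2.21-fold of MRPL16, and to the left in 8 genes, of which MRPL10 stands farthest.

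The 2 subunits did not separate. The median log2 difference was 0.42 over 48 large-subunit genes and 0.45 over 27 small-subunit genes, so the large-subunit median minus the small-subunit median was -0.032. The values of the subunits overlapped over nearly their whole range, from -0.43 to 1.14 in the large and from -0.15 to 1.01 in the small subunit. At least 1.5-fold higher were 15 large-subunit genes (31.2%) and 9 small-subunit genes (33.3%). Above 0 lay 45 of 48 large-subunit and 22 of 27 small-subunit genes. The sign of the small difference between the medians turned to 0.014 when all measured probe sets of a gene were averaged, and it was -0.15 when probe sets ending in _x_at or _s_at, which can bind related transcripts, were left out (26 large-subunit and 15 small-subunit genes).

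Symbols do not always give the place of a protein in the ribosome. MRPS30 and MRPS18A carry small-subunit symbols but sit in the large subunit in the known structure. With both moved, the medians were 0.42 over 50 large-subunit genes and 0.45 over 25 small-subunit genes. MRPS30 had a signal of 2159 in the stretched and 1511 in the non-stretched array, a difference of 0.51, and its dimmer probe sets differed by 0.11 and 0.35.

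**Figure D2:**
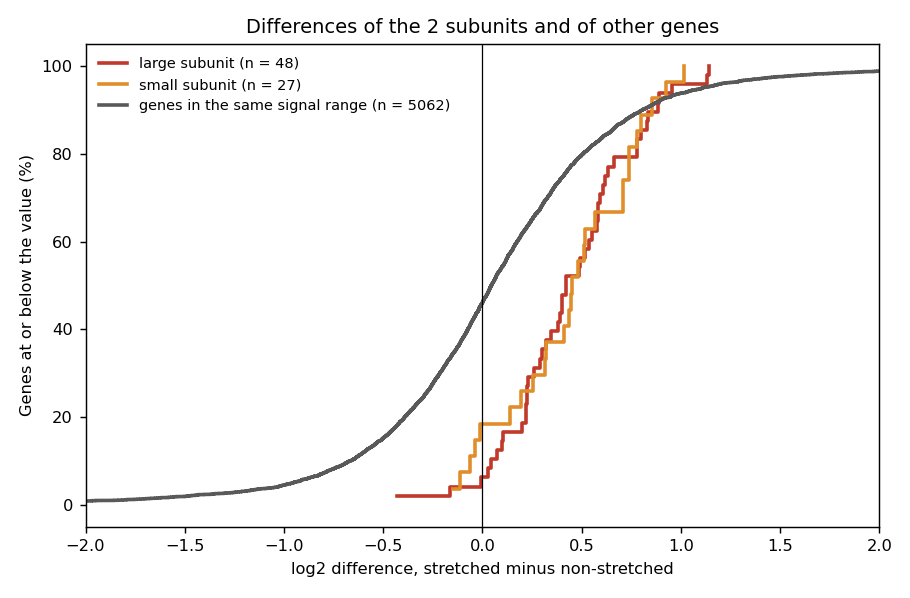
Cumulative share of genes (%) against log2 difference, stretched minus non-stretched, for 48 large-subunit genes (red), 27 small-subunit genes (orange) and the 5062 other measured genes of the same signal range (grey). The subunit curves run together to the right of the grey curve up to about the top of their range, where the grey curve crosses them and goes on beyond the axis.

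Within the large subunit, the members with the largest differences were MRPL16 and MRPL4, both with counterparts in bacterial ribosomes. MRPL16, whose bacterial counterpart lies near the peptidyl transferase centre, had a signal of 2893 in the stretched and 1312 in the non-stretched array, 2.21-fold higher in its single probe set. MRPL4 had 1156 in the stretched and 528 in the non-stretched array, 2.19-fold higher, and its other 2 probe sets differed by 1.28 and 1.43. Each stretched signal was thus the higher one in every probe set of both genes. Ranked by difference among all measured genes, MRPL16 stood at place 795 and MRPL4 at place 821 from the top.

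MRPL38 had 843 in the stretched and 434 in the non-stretched array, 1.94-fold higher. MRPL36, which has a bacterial counterpart, had 3933 in the stretched and 2121 in the non-stretched array, 1.85-fold higher. MRPL39 had 1621 in the stretched and 880 in the non-stretched array, 1.84-fold higher. These 3 genes rest on 1 probe set each above the floor in both arrays.

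MRPL12, a stalk protein that also binds the mitochondrial RNA polymerase, had 3512 in the stretched and 1978 in the non-stretched array, 1.78-fold higher in its brightest probe set. Its second probe set had 1076 in the stretched and 462 in the non-stretched array, a difference of 1.22. MRPL35 had 1672 in the stretched and 938 in the non-stretched array, also 1.78-fold higher, but its brightest probe set is of the _x_at kind, which can bind related transcripts. Another of its probe sets, with no such ending, had 724 in the stretched and 129 in the non-stretched array, a difference of 2.49, and the last one differed by 0.71.

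At the other end, MRPL10, which anchors the stalk to the large subunit, was the member with the lowest difference. It had 1683 in the stretched and 2270 in the non-stretched array, 1.35-fold lower, in its single probe set. MRPL40 had 1683 in the stretched and 1883 in the non-stretched array, a difference of -0.16. MRPL48 (-0.0051), MRPL54 (0.028), MRPL30 (0.042) and MRPL51 (0.072) differed least in their brightest probe sets. That of MRPL51 is its only single-gene probe set and of the _x_at kind, and a probe set it shares with SPTLC1 was at 0.46. For MRPL30 the other 4 probe sets, all dimmer, lay between 0.075 and 0.72.

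Some places in the structure can be compared, with lists drawn up after these values were seen. The lists need not hold every protein of a place, so their ranges and medians describe the listed genes only. The stalk that binds translation factors held the widest contrast, since MRPL12 and MRPL11 were at 0.83 and 0.66 and MRPL10 at -0.43. The 5 proteins listed for the exit tunnel of the nascent chain, MRPL17, MRPL22, MRPL23, MRPL24 and MRPL45, were all above 0 as deposited. They lay within 0.10 and 0.51, with a median of 0.22. With 75th-percentile centring the median of these 5 was 0.11, and MRPL24 and MRPL45 were below 0 (-0.0074 and -0.0064). MRPL45, which ties the ribosome to the inner membrane, had 3448 in the stretched and 3214 in the non-stretched array. The 5 proteins listed for the central protuberance were spread from MRPL40 and MRPL48, both below 0, over MRPL58 and MRPL46 (0.58 and 0.59) to MRPL38 (0.96). MRPL58 is a peptidyl-tRNA hydrolase that became part of the ribosome.

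In the small subunit, MRPS6 was the member with the largest difference. It had 2837 in the stretched and 1405 in the non-stretched array, 2.02-fold higher in its single probe set, though under 2-fold with 75th-percentile centring (0.91) or with the loess trend removed (0.96). MRPS2 had 1653 in the stretched and 872 in the non-stretched array, 1.90-fold higher. MRPS26 had 1137 in the stretched and 630 in the non-stretched array, 1.81-fold higher, and is found only in mitochondria. MRPS6 and MRPS2 both have bacterial counterparts.

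MRPS12, a protein of the decoding centre, was named here after its values were seen because its probe sets differ in size. The brightest had 4614 in the stretched and 2656 in the non-stretched array, a difference of 0.80. The next had 581 in the stretched and 138 in the non-stretched array, and the one after it 344 in the stretched and 82.1 in the non-stretched array, a difference of 2.07 in each. All 3 end in _s_at, and the 4th lay at the floor.

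The small-subunit members below 0 were MRPS33 (-0.15), MRPS14 (-0.11), MRPS21 (-0.061), MRPS27 (-0.037) and MRPS18A (-0.010). MRPS33 had 2930 in the stretched and 3252 in the non-stretched array. MRPS27, a pentatricopeptide repeat protein that binds RNA, had 1379 in the stretched and 1415 in the non-stretched array. All 5 differed by less than the SD of a single probe set.

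The 3 MRPS18 proteins descend from the same bacterial ribosomal protein and occupy different sites. MRPS18C had 2030 in the stretched and 1453 in the non-stretched array, a difference of 0.48. MRPS18B had 3412 in the stretched and 2986 in the non-stretched array, at 0.19 in its brightest and 0.31 in its other probe set. MRPS18A had 1327 in the stretched and 1336 in the non-stretched array, at -0.010 and 0.024 in its 2 probe sets. MRPS18A and MRPS18B thus differed by less than the SD of a single probe set, and MRPS18C by more. That SD holds no variation between cultures, so it does not tell which of the 3 would differ again.

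The 3 members with the highest mean signal were MRPL3, MRPL47 and MRPL51, and the 3 with the lowest were MRPS31, MRPL43 and MRPL38. MRPL3 had 7639 in the stretched and 6383 in the non-stretched array, 1.20-fold higher. MRPL47 had 6403 in the stretched and 4856 in the non-stretched array, 1.32-fold higher, and 1.33 on the log2 scale in its dimmer probe set. MRPL51 had 3745 in the stretched and 3564 in the non-stretched array, 1.05-fold higher. MRPL43 had 728 in the stretched and 592 in the non-stretched array, a difference of 0.30, and MRPS31 had 749 in the stretched and 680 in the non-stretched array, a difference of 0.14. Small differences thus stood at both ends of the signal range, and MRPL38, among the dimmest, had one of the largest.

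Members with a bacterial counterpart and members found only in mitochondria differed little as groups. The median was 0.43 over 46 bacterial-type members and 0.50 over 28 mitochondrion-specific members, with MRPL55 put in neither class. At least 1.5-fold higher were 14 of the 46 and 9 of the 28. All 3 members at least 2-fold higher as deposited are bacterial-type, but so are 46 of all 75 members. With 3 genes no difference between the classes can be read from this.

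The probe sets that did not represent a gene were also mostly above 0. Of 140 probe sets of the 75 genes, 124 lay above the floor in both arrays, 5 in 1 array and 11 in none. Of the 124, 49 were not the brightest of their gene, and 47 of these 49 were above 0, with a median of 0.47. In 28 genes with at least 2 such probe sets, the brightest had a median of 0.42 and the second a median of 0.41. Both had the same sign in 25 (89.3%), against 78.9% of 5818 genes over the whole array. Of the 28 genes, the brightest was above 0 in 26 and the second in 27. Such counts alone make equal signs frequent, so the 89.3% gives no added support. The exception among the second probe sets was MRPL19, at -0.27 and a signal of 73.6 in the stretched and 88.7 in the non-stretched array. Over the whole array the second was above 0 in 3266 of 5818 genes and the brightest in 2991. The 5 probe sets of MRPL41 lay between -0.015 and 0.86, the lowest of them ending in _x_at and with signals of 30.2 in the stretched and 30.6 in the non-stretched array, just above the floor.

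**Figure D3:**
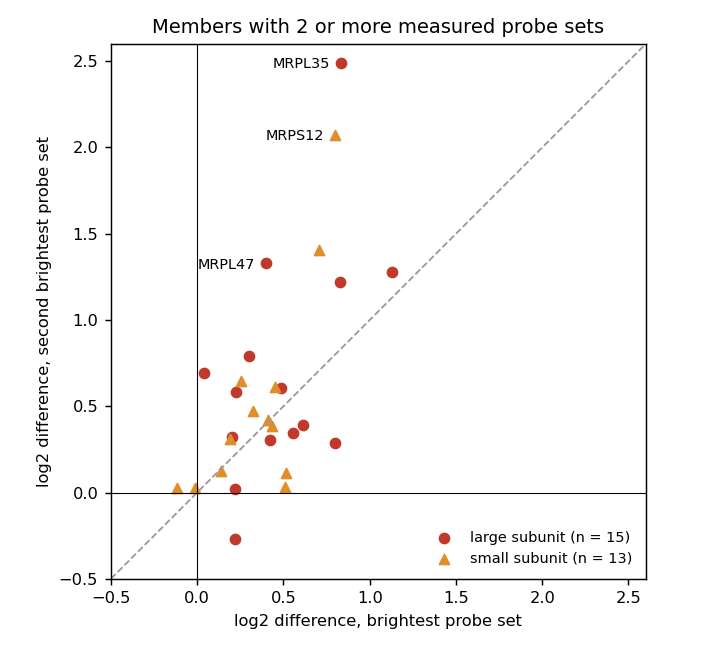
Log2 difference (stretched minus non-stretched) of the second brightest against the brightest probe set for the 28 members with a pair of probe sets above both floors, with large-subunit genes as circles, small-subunit genes as triangles and the line of equality dashed. Most points lie above 0 on both axes, and MRPL35, MRPS12 and MRPL47 lie far above the line.

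Entries outside the 75 genes were as follows. MRPL20-AS1, the antisense transcript, had 922 in the stretched and 562 in the non-stretched array, a difference of 0.72. MRPL45P2, the pseudogene, lay at the floor in both arrays (6.59 in the stretched and 3.38 in the non-stretched array). Probe sets naming several genes entered no count. One for MRPS24 and a read-through transcript had 6559 in the stretched and 5102 in the non-stretched array (0.36), and one for MRPL53 and CCDC142 had 2761 in the stretched and 2591 in the non-stretched array (0.092). Another, for MRPL51 and SPTLC1, had 2140 in the stretched and 1560 in the non-stretched array (0.46). KGD4, once named MRPS36 and now known as a subunit of the oxoglutarate dehydrogenase complex, had 1881 in the stretched and 2031 in the non-stretched array (-0.11).

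Of 5 further mitoribosomal proteins with other symbols, 4 were on the array under a single gene and all were above 0. PTCD3, a pentatricopeptide repeat protein of the small subunit, had 626 in the stretched and 325 in the non-stretched array, a difference of 0.94, and its 4 probe sets lay between 0.86 and 0.98. GADD45GIP1, of the large subunit, was at 0.72. CHCHD1, of the small subunit, was at 0.23. DAP3, a GTP-binding protein of the small subunit, was at 0.48 in its brightest probe set, which ends in _s_at, and at -0.18 in the other.

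Genes that build and serve the mitochondrial ribosome were described with lists chosen with earlier results of these data known. Of 30 measured assembly factors, 27 were above 0, 10 at least 1.5-fold higher and none 1.5-fold lower, with a median of 0.39. RBFA, which binds the small subunit during its assembly, had 648 in the stretched and 266 in the non-stretched array (1.28). MRM3, a methyltransferase of the large ribosomal RNA, had 649 in the stretched and 290 in the non-stretched array (1.16). DHX30, an RNA helicase, and MTERF3, of the mTERF protein family, were both at 1.08, with the other DHX30 probe sets down to 0.12.

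Of 20 measured translation factors and tRNA-modifying enzymes, 15 were above 0, with a median of 0.31. Of the 20, 5 passed 1.5-fold upward and 2 passed it downward. TRMU, which thiolates mitochondrial tRNAs, had 323 in the stretched and 124 in the non-stretched array (1.39, and 0.48 with the floor raised to the 75th percentile). GTPBP3, another tRNA-modifying enzyme, was at 1.05 in its brightest and 0.015 in its other probe set. MTRF1L, a release factor, was at 0.73, and HEMK1, which methylates release factors, at -0.69.

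The list for copying and reading out the mitochondrial genome had a median of 0.62 over 23 genes, with 20 above 0 and 12 at least 1.5-fold higher. MGME1, a nuclease of mitochondrial DNA maintenance, had 484 in the stretched and 175 in the non-stretched array. Its difference was 1.47, and 1.07 with the floor raised to the 75th percentile. ELAC2, which trims the 3′ ends of tRNAs, was at 1.13. TFAM, which packages mitochondrial DNA and starts its transcription, had 2196 in the stretched and 1038 in the non-stretched array (1.08), and its 4 probe sets lay between 0.61 and 1.08. POLRMT, the mitochondrial RNA polymerase, had 546 in the stretched and 279 in the non-stretched array (0.97).

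Of 21 measured genes of protein import and mitochondrial proteolysis, 19 were above 0 and 9 at least 1.5-fold higher, with a median of 0.40. TOMM40, the pore of the outer membrane through which ribosomal proteins enter, had 1733 in the stretched and 519 in the non-stretched array, 3.34-fold higher. PMPCA, a subunit of the protease that removes import signals, was at 1.23, GRPEL1, a partner of the mitochondrial Hsp70, at 1.18, and TIMM50, an inner membrane receptor, at 1.07.

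The transcripts read by the mitochondrial ribosome differed little. Of the 13 proteins that RefSeq lists for mitochondrial DNA, 7 had a probe set of their own on the array, and this list was drawn up after the values were seen. Their differences lay between 0.0025 (ND4) and 0.24 (ND6, a dim probe set with 189 in the stretched and 160 in the non-stretched array), with a median of 0.076, which was -0.032 with 75th-percentile and 0.19 with spike-in centring. COX1, a catalytic subunit of cytochrome oxidase, had 2820 in the stretched and 2773 in the non-stretched array. The median signal of these 7 genes was high, 5635 in the stretched and 5345 in the non-stretched array. Whether such signals follow transcript amounts in proportion was not tested. The 67 measured nuclear-encoded respiratory chain and ATP synthase subunits, also listed afterwards, had a median of 0.17, with 53 above 0 and 7 at least 1.5-fold higher. That median was 0.061 with 75th-percentile and 0.28 with spike-in centring.

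Cytosolic ribosomal proteins, the counterpart set for the cell's main ribosome, lay close to 0 in the deposited values. The median over 51 measured genes was 0.033, against -0.075 with 75th-percentile and 0.15 with spike-in centring, with all values as deposited between -0.21 and 0.32 and none 1.5-fold different. Their signals were far higher (median 10779 in the stretched and 10417 in the non-stretched array), and whether signals of this height follow transcript amounts in proportion was not tested. The gap between the medians of the mitoribosomal and the cytosolic list was seen within the same 2 arrays and has no replicate.

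**Figure D4:**
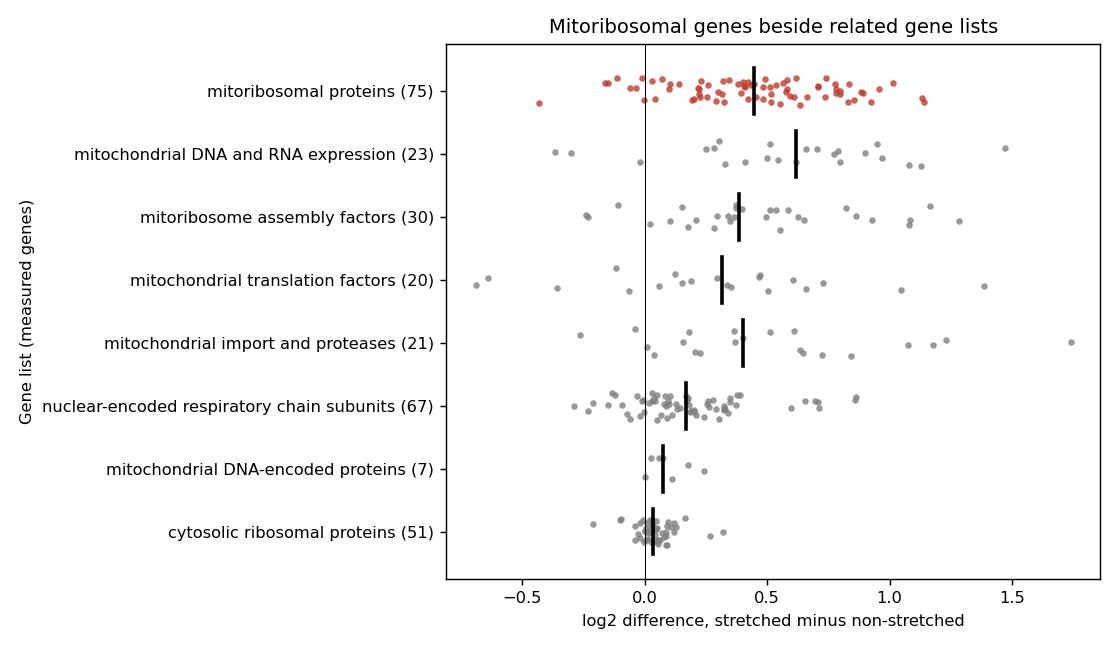
Log2 difference (stretched minus non-stretched) of each measured gene of 8 lists, 1 point per gene with random vertical scatter, black bars marking the list medians and the number of measured genes in brackets. The mitoribosomal genes (red, median 0.45) lie beside the other lists of the mitochondrial gene expression system, while mitochondrial DNA-encoded and cytosolic ribosomal proteins (medians 0.076 and 0.033, which are -0.032 and -0.075 with 75th-percentile centring and 0.19 and 0.15 with spike-in centring) are gathered at smaller differences.

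Since most members differed in the same direction, their promoters were compared with those of other genes, with motifs chosen after the values were seen, using RefSeq windows (GRCh38.p14) from 250 bases before to 50 bases after the 5′-most start of a gene. Windows were found for 67 of the 75 members and for 15842 protein-coding genes. The latter were not limited to the signal range of the members, so whether genes as bright have like motif shares was not tested. Each motif was searched on both strands. The ETS motif CCGGAAG, the core bound by GABP and other ETS factors, was present in 28 of 67 member windows (41.8%), against 14.2% of all windows. The motif AAGATGGC of YY1, a zinc finger factor, was present in 19 (28.4%), against 3.86%. The motif of NRF1, nuclear respiratory factor, GCGCA and GCGC joined by any 1 base, was present in 8 (11.9%), against 8.58%, and the E-box CACGTG, bound by MYC and other factors, in 7 (10.4%), against 8.82%.

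**Figure D5:**
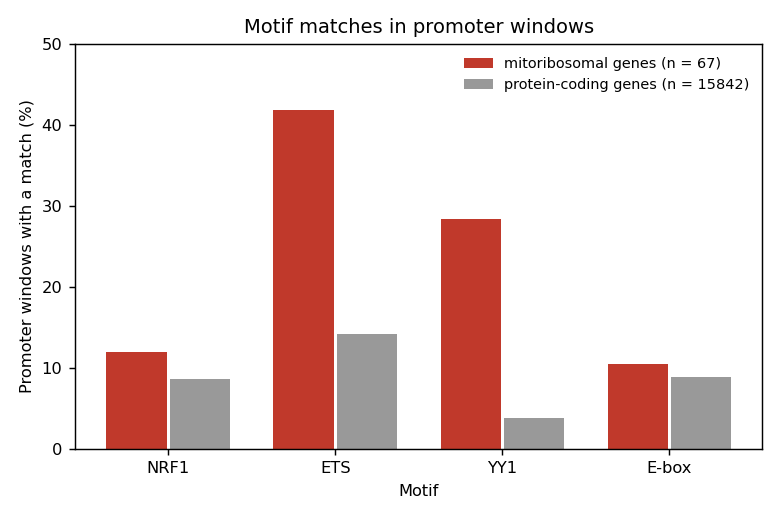
Share of promoter windows (%) with at least 1 match to each of 4 motifs, in 67 mitoribosomal genes (red) and in 15842 protein-coding genes (grey). The bars for ETS (41.8% and 14.2%) and YY1 (28.4% and 3.86%) differ most.

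Within the members, holding a motif did not go with a larger difference for ETS or NRF1. The median log2 difference was 0.34 in the 28 members with the ETS motif and 0.54 in the 39 without it. It was 0.51 in the 19 members with the YY1 motif and 0.43 in the 48 without it. For NRF1 it was 0.37 with and 0.48 without, and for the E-box 0.58 in 7 members with and 0.43 in 60 without. Members with at least 1 of the motifs (46) and members with none (21) had medians of 0.46 and 0.45. A match is a description of the letters and not evidence of binding.

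The 150 bases before the start are shown for the 3 members at least 2-fold higher, for the next members with a motif there, and for the lowest member with one, with matches in capitals.
MRPL16, chr11:59810779-59810928, strand minus: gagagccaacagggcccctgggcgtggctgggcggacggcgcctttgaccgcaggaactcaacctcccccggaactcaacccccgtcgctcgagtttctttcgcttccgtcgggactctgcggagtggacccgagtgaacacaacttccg
MRPL4, chr19:10251801-10251950, strand plus: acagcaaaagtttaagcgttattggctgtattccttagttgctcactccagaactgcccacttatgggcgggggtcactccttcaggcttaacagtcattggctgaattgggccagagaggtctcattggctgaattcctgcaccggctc
MRPS6, chr21:34073428-34073577, strand plus: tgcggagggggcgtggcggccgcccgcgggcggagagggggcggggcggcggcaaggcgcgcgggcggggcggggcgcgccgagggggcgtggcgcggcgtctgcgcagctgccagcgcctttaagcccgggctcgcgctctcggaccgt
MRPS2, chr9:135499815-135499964, strand plus: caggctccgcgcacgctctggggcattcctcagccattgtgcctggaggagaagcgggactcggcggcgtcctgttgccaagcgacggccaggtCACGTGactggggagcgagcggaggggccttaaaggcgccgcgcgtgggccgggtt
MRPL36, chr5:1799838-1799987, strand minus: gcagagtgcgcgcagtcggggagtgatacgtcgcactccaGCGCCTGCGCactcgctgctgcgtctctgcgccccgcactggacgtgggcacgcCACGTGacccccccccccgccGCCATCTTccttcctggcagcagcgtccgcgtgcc
MRPL40, chr22:19432395-19432544, strand plus: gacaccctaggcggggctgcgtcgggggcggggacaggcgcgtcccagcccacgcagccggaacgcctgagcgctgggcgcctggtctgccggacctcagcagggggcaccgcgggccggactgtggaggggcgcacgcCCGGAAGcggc
None of these motifs lies in the stretches of MRPL16, MRPL4 and MRPS6, although an ETS match of MRPL16 overlaps its start. MRPS2 holds an E-box. MRPL36 holds matches to NRF1, the E-box and YY1 in that order. MRPL40, which had a difference of -0.16, holds an ETS match shortly before its start.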

How the data were processed

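Affymetrix arrays of 2 Calu-3 RNA samples were used, 1 per condition, made from 6 µg of total RNA per the labels' protocols. The authors deposited signal intensities on a linear scale for 54675 probe sets. How probes were summarised and arrays scaled is not given in the sources used here. Array medians differed by -0.017 on the log2 scale, 75th percentiles by 0.11 and 18 hybridisation spike-ins by a median of -0.11, so values were used as deposited.

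Gene names came from GEO's platform annotation, and 41037 of 41091 single-gene probe sets had a current RefSeq symbol. Signals were set to log2 and floored at each array's 50th percentile. A gene was represented by its brightest probe set and was measured if above the floor in at least 1 array. A gene was counted as different at 2-fold or at 1.5-fold. Members, gene lists and motifs were chosen with earlier results of these data known. After the values were seen, MRPL47 was moved to the bacterial-type class, MRPL55 was left out of both classes, and a pseudogene was taken off the respiratory chain list.

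Genes named were the 10 highest and 10 lowest members, any at least 2-fold different or at the floor, the 3 brightest and 3 dimmest, genes with probe sets of opposite sign at least 0.5 apart, the MRPS18 set, MRPS30, non-coding entries, and up to 4 genes per list. Others, named as examples of a structural place, probe sets or head-to-head pairs, were chosen after their values were seen. Scripts (Python 3.11.15, statsmodels 0.14.6) were tested on simulated data. Alternatives covered the floor, centring, a loess trend, probe set choice and subunit assignment. The number of arrays limits the precision.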

Additional observations from a re-analysis of the deposited data

How the results depend on the processing

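No paired analysis was possible because each condition has 1 array and no result comes from a test. The direction of the mitoribosomal median held under every alternative run. With the arrays centred on their 75th percentile the median was 0.34 (0.31 in the large and 0.35 in the small subunit), and centred on the hybridisation spike-ins, an alternative chosen after seeing the data, it was 0.56 (0.54 and 0.57). These shifts move all genes alike, and the median of the members stayed 0.40 above that of genes in the same signal range. With the loess trend removed the members' median was 0.39. The count of members at least 2-fold higher, 3 as deposited, was 2 with 75th-percentile centring and with the loess trend removed. It was 6 with spike-in centring, with probe sets averaged, and when the _x_at and _s_at kinds were left out. The share of all measured genes at least 2-fold higher, 7.78% as deposited, is not given for the other settings, so no excess can be read from these counts. Leaving out the _x_at and _s_at kinds left 41 members, of which 35 were above 0 and 15 (36.6%) at least 1.5-fold higher. Among all genes measured in that setting 19.2% were at least 1.5-fold higher. The large-subunit median minus the small-subunit median was -0.15. Fewer genes enter that setting by construction. Of 193 values of named members under these alternatives, 189 moved by less than the SD of a single probe set, and none at least 2-fold different turned its sign. These counts were largely fixed in advance. The floor settings left the values of the named members unchanged, and centring shifted every gene by a constant of at most 0.11. With 75th-percentile centring 5 members above 0 as deposited (MRPL54, MRPL30, MRPL51, MRPL24 and MRPL45) were below 0, and with spike-in centring 4 below 0 (MRPL48, MRPS18A, MRPS27 and MRPS21) were above 0.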

Other observations

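A part of the mitoribosomal genes shares its start region with a neighbour that runs the other way. By RefSeq start sites, 18 of 67 members (26.9%) had a protein-coding gene starting head to head within 1000 bases, against 11.1% of 15842 protein-coding genes. The 15842 genes were not limited to the signal range of the members, so whether genes as bright have a like share was not tested. MRPL46 and MRPS11 form such a pair with each other, their starts 320 bases apart, and were at 0.59 and 0.45. The 15 measured partners that are not members had a median of 0.26, with 11 above 0. Over all measured genes the median was 0.0050, with 50.5% above 0. Of the 15 partners, 4 passed 1.5-fold upward and 2 passed it downward. Whether partners differ along with their members was not tested. SKA3, a protein of the kinetochore and the partner of MRPL57, had 1107 in the stretched and 182 in the non-stretched array (2.61), while MRPL57 was at 0.42. SARS2, the mitochondrial seryl-tRNA synthetase and partner of MRPS12, had 245 in the stretched and 122 in the non-stretched array. ZNF189, the partner of MRPL50, had 255 in the stretched and 497 in the non-stretched array (-0.97), while MRPL50 was at 0.48.

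Regulators linked to mitochondrial genes had no common direction. Of 15 measured, 7 were above 0, and the median of -0.059 turned to 0.24 when probe sets were averaged and was -0.17 with 75th-percentile centring. PPRC1, a coactivator of NRF1, had 631 in the stretched and 309 in the non-stretched array (1.03). PPARGC1B, of the same coactivator family, had 173 in the stretched and 69.4 in the non-stretched array (1.32 in its brightest and 0.66 in its other probe set). MYC was at 0.32. NRF1 was at 0.35 in its brightest probe set, with others down to 0.078. GABPA was at -0.11 in its brightest and 0.28 in its other probe set. YY1 was at -0.077 in its brightest probe set and reached 1.28 in another of its 6. ATF4 and DDIT3, of the integrated stress response, were at -0.79 and -3.19.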
